A study of Homo sapiens with 8 samples.

Results

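The genes described here encode the enzymes that make cholesterol and fatty acids, together with the proteins that sense sterols and set the transcription of those enzymes. They were chosen by gene symbol, 35 symbols in all, out of 60592 gene symbol rows that each library reports. Every one of the 35 symbols had a single row. The cells were WSU-DLCL2, an established human line of diffuse large B-cell lymphoma, grown in serum-supplemented medium and sequenced as bulk RNA after 48 h with 15 nM elesclomol (ES) or with its solvent DMSO. Elesclomol is a small molecule that binds copper and carries it into cells, and FDX1 encodes ferredoxin 1, an electron carrier of the mitochondrial matrix. There were 4 groups of 2 libraries each: control DMSO and control ES, whose genotype label is WT, and FDX1-OE DMSO and FDX1-OE ES, from cells that overexpress FDX1. How FDX1 was introduced, which promoter drives it, whether the FDX1-OE line is a clone or a pool, and whether the control cells carry an empty vector are not given in the sources used here. The sources also leave unsaid if replicate libraries were grown apart, so p-values speak of the spread between libraries only, and that spread may be technical. In bulk RNA, fewer cells of a kind and less RNA per cell cannot be told apart.

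Cholesterol is built from acetyl-CoA. The mevalonate steps turn acetyl-CoA into the isoprenoid farnesyl diphosphate, farnesyl-diphosphate farnesyltransferase joins it into squalene, and a series of oxidations, demethylations and reductions turns squalene into cholesterol. Fatty acids come from the same acetyl-CoA pool, which ATP citrate lyase supplies, and are then elongated and desaturated. Transcription of both sets of enzymes is driven by the sterol regulatory element-binding proteins (SREBPs), the products of SREBF1 and SREBF2. SCAP escorts the SREBP precursors from the endoplasmic reticulum to the Golgi, where proteases release the active factor, and the INSIG proteins hold SCAP back when sterols are plentiful. SREBPs bind sterol response elements near gene starts, usually beside sites for NF-Y, which reads the CCAAT box, and SP1, which reads GC boxes.

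The promoters of 5 genes whose values differ in kind are shown so that these elements can be seen: FDPS, HMGCS1, SCD, INSIG1 and SREBF2. Each is the 250 bases before the start given by RefSeq on build GRCh38.p14, 5′ to 3′ on the gene's own strand. Capitals mark matches, on either strand, to CCAAT (read ATTGG on the other strand) and to CACNCNAC, a loose form of the sterol response element in which N is any base. In SREBF2 the capitals also take in TCACNCCAC, the stricter core, each match of which holds a CACNCNAC. HMGCS1 has a further RefSeq window, with neither capitalised motif, that is not shown.
FDPS: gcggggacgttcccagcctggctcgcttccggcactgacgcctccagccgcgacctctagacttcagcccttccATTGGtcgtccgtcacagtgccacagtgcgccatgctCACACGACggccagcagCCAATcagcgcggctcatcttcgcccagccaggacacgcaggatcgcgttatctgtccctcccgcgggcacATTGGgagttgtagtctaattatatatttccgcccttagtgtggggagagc
HMGCS1: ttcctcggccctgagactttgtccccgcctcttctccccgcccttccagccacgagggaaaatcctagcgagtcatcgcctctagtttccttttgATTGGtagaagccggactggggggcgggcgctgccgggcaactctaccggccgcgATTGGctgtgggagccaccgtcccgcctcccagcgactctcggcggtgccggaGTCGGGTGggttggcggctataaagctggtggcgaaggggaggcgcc
SCD: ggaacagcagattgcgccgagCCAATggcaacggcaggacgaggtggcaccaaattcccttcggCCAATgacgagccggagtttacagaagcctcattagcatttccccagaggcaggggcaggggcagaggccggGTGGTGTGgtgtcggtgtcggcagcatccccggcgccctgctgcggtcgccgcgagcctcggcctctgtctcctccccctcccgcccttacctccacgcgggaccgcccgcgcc
INSIG1: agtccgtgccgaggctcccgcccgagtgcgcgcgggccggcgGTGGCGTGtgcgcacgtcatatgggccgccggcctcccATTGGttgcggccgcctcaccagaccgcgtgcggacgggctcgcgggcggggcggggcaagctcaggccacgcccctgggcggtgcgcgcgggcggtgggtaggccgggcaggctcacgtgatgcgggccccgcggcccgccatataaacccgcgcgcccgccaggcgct
SREBF2: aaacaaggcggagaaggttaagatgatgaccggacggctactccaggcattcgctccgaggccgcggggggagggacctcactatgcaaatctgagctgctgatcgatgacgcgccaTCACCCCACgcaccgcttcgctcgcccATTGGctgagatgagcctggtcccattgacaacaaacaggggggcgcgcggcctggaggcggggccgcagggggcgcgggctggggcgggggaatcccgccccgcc
Their positions are chr1:155308616-155308865 (plus strand) for FDPS, chr5:43313413-43313662 (minus strand) for HMGCS1, chr10:100346983-100347232 (plus strand) for SCD, chr7:155297628-155297877 (plus strand) for INSIG1 and chr22:41832855-41833104 (plus strand) for SREBF2. RefSeq promoter entries were found for 31 of the 35 genes, in 44 windows of 300 bases (250 before to 50 after a start), and ACAT2, FDFT1, SQLE and FASN had no entry. At least 1 window held CACNCNAC in 13 of the 31 genes, against 13.4% of all 27305 genes in the table. CCAAT was found in 24 of the 31, against 39.7% of all genes, and the SP1 box GGGCGG in 29, against 48.3%. The E box CACGTG was present in 5 of the 31, against 8.77% of all genes. SREBF2, 133 bases before its start, held the only match to TCACNCCAC among the members, a string found in 1.39% of all genes. These are letter matches in a short window and not measured sites.

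FDX1 checked the labels: it stood between 9.88 and 10.8 FPKM (fragments scaled to gene length and library size) in the 4 control libraries and between 56.0 and 60.7 FPKM in the 4 FDX1-OE libraries. FPKM sums lay between 445716 and 451027 in the control and DMSO libraries and at 408018 and 403024 in the FDX1-OE ES libraries, which stand apart. The 13 mitochondrially encoded genes took 16.9 to 17.6% of FPKM in the other 6 libraries, and 14.7 and 11.9% in the FDX1-OE ES libraries. The replicates of FDX1-OE ES were also less alike: the median absolute difference between them over the 34 tested members was 0.19 log2 units, against 0.05 to 0.07 in the other groups. All 6 B cell markers were present, with a summed level of 1391 and 1355 FPKM in the FDX1-OE ES libraries and 1461 to 1498 in the rest. None of 6 T and NK cell markers and none of 6 myeloid markers reached 1 FPKM in any library, and hepatocyte and adipocyte markers summed to at most 0.16 FPKM. Epithelial and fibroblast markers summed to 0.978 to 1.77 FPKM, of which only DCN passed the filter for testing. With ES in FDX1-OE cells, CD79A and PAX5 of the B cell markers were called higher (0.22 and 0.28 on the log2 scale) and CD79B and CD22 lower (-0.34 and -0.53), with a median of -0.17 over the 6. DCN, a fibroblast matrix gene, was called lower there (-0.67), and in FDX1-OE against control cells with ES (-0.42). The part of these marker changes, the lower FPKM sums and the mitochondrial shares in the results below was not tested beyond the rescalings given.

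A gene was tested where it had at least 1 FPKM in at least 2 libraries, which 34 of the 35 members and 12063 genes in all did. ACSS2, which makes acetyl-CoA from acetate, did not pass and lay between 0.012 and 0.527 FPKM. Fold changes are on the log2(FPKM + 1) scale, those written with ± carry 1 SE from limma, and a gene was called where its adjusted p (limma, Benjamini-Hochberg over the 12063 genes) was below 0.05. In control DMSO the levels per gene length ran from 178 FPKM for FDFT1 (farnesyl-diphosphate farnesyltransferase, the squalene-forming enzyme), 135 for ACLY (ATP citrate lyase) and 123 for FDPS (farnesyl diphosphate synthase) down to 1.58 for INSIG2. Fatty acid synthase (FASN) stood at 99.5 FPKM and stearoyl-CoA desaturase (SCD) at 94.5.

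**Figure D1:**
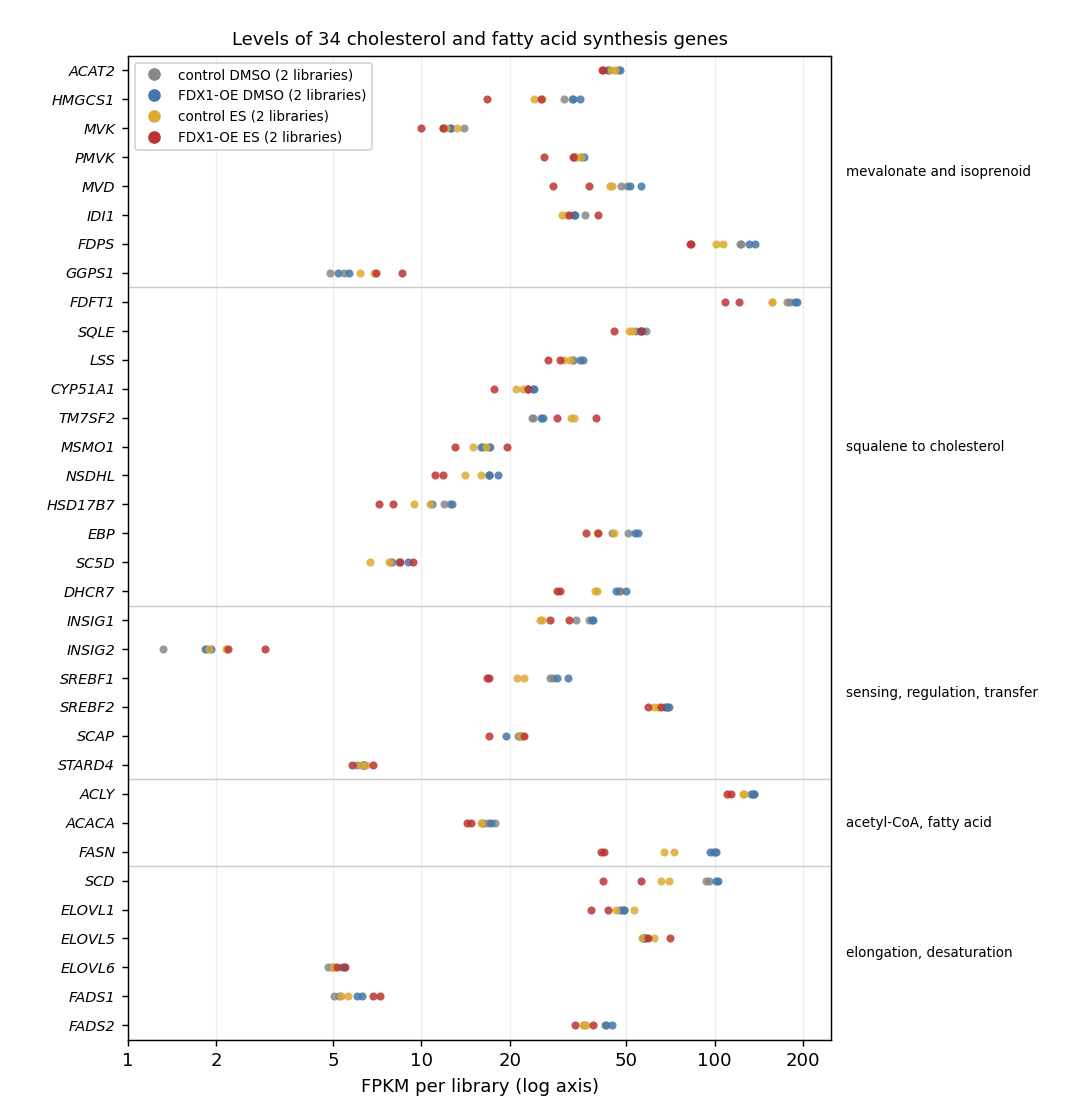
Levels of the 34 tested genes in each of the 8 libraries, in FPKM on a log axis, grouped by role (labels at right) and coloured by group. For FASN the FDX1-OE ES libraries lie near 41 FPKM, below control ES near 70 and the DMSO libraries near 100, while SCAP, STARD4 and ELOVL6 libraries of all groups lie close together.

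In DMSO, FDX1 overexpression alone changed none of these genes by the test. FDX1-OE DMSO and control DMSO differed in 0 of 34 members, beside 1 called gene of 12063, or 0.00829%, which was FDX1 itself. At an unadjusted p below 0.05, limma placed 1 member higher and none lower, against 420 genes (3.48%) among all tested. The member fold changes ran from -0.07 to 0.22 with a median of 0.06, beside a median of 0.00 over all genes. Both FDX1-OE libraries lay above both control libraries for 16 members, below them for 1 and overlapped for 17, and among all genes 19.5% lay above and 19.5% below. The sum over the 35 members was 1473 and 1452 FPKM in control DMSO and 1531 and 1508 FPKM in FDX1-OE DMSO. FADS1, a fatty acid desaturase, was at 5.25 and 5.05 FPKM in control and 6.26 and 6.02 in FDX1-OE libraries without passing the adjusted test.

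Elesclomol in control cells lowered 5 members and raised none. FASN, INSIG1, SREBF1, DHCR7 and FDPS were called lower, 5 of 34, where 1% of all genes were called lower and 6.74% higher (7.74% in either direction). At an unadjusted p below 0.05, 8 members were lower and 2 higher, while 27.4% of all genes reached that level. The median member fold change was -0.11, against 0.09 over all genes, and both ES libraries lay below both DMSO libraries for 19 of the 34, against 17.1% of all genes. Summed over the 35 members the level was 1302 and 1301 FPKM in control ES, 10.97% below the control DMSO mean, and the groups did not overlap. None of the 5 calls was made under all 18 alternative settings: with 1 library left out, the count of lower members was 0 (either control DMSO library, or control ES replicate 2), 1 (control ES replicate 1, or either FDX1-OE DMSO library) or 8 (either FDX1-OE ES library). Without both FDX1-OE ES libraries, in a fit of the other 3 groups chosen after seeing the data, 8 members were lower and 1 higher.

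In FDX1-OE cells elesclomol lowered 17 members and raised 2. That is 17 of 34 lower where 13.7% of all genes were called lower, and 2 higher where 47.1% of all genes were called higher (60.8% in either direction). At an unadjusted p below 0.05 the member counts were the same, and 64.9% of all genes reached that level. The median member fold change was -0.24, against 0.25 over all genes. Both ES libraries lay below both DMSO libraries for 22 members, against 20.1% of all genes, and above them for 5, against 58.9%. The summed level was 1148 and 1113 FPKM, 25.6% below the FDX1-OE DMSO mean. As a share of all FPKM the members took 0.344 and 0.335% in FDX1-OE DMSO and 0.281 and 0.276% in FDX1-OE ES, beside 0.326 and 0.325% in control DMSO and 0.291% in both control ES libraries. Rescaled to equal totals the fall of the sum in FDX1-OE cells was 17.8%, and with median-ratio scaling, which moves the median of all genes to -0.04, it was 41.2%. The median member change was then -0.10 beside 0.37 over all genes, and -0.56 beside -0.04, so that members lay below all genes under each scaling. The number of members called lower was 12 and 27. Of all 12063 genes 1093 and 3645 were then called lower, beside 1652 as reported. Of the 19 calls, 12 were made under each of the 17 alternatives: FASN, SCD, SREBF1, FDFT1, MVD, DHCR7, FDPS, HMGCS1, NSDHL, HSD17B7, EBP and INSIG1.

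**Figure D2:**
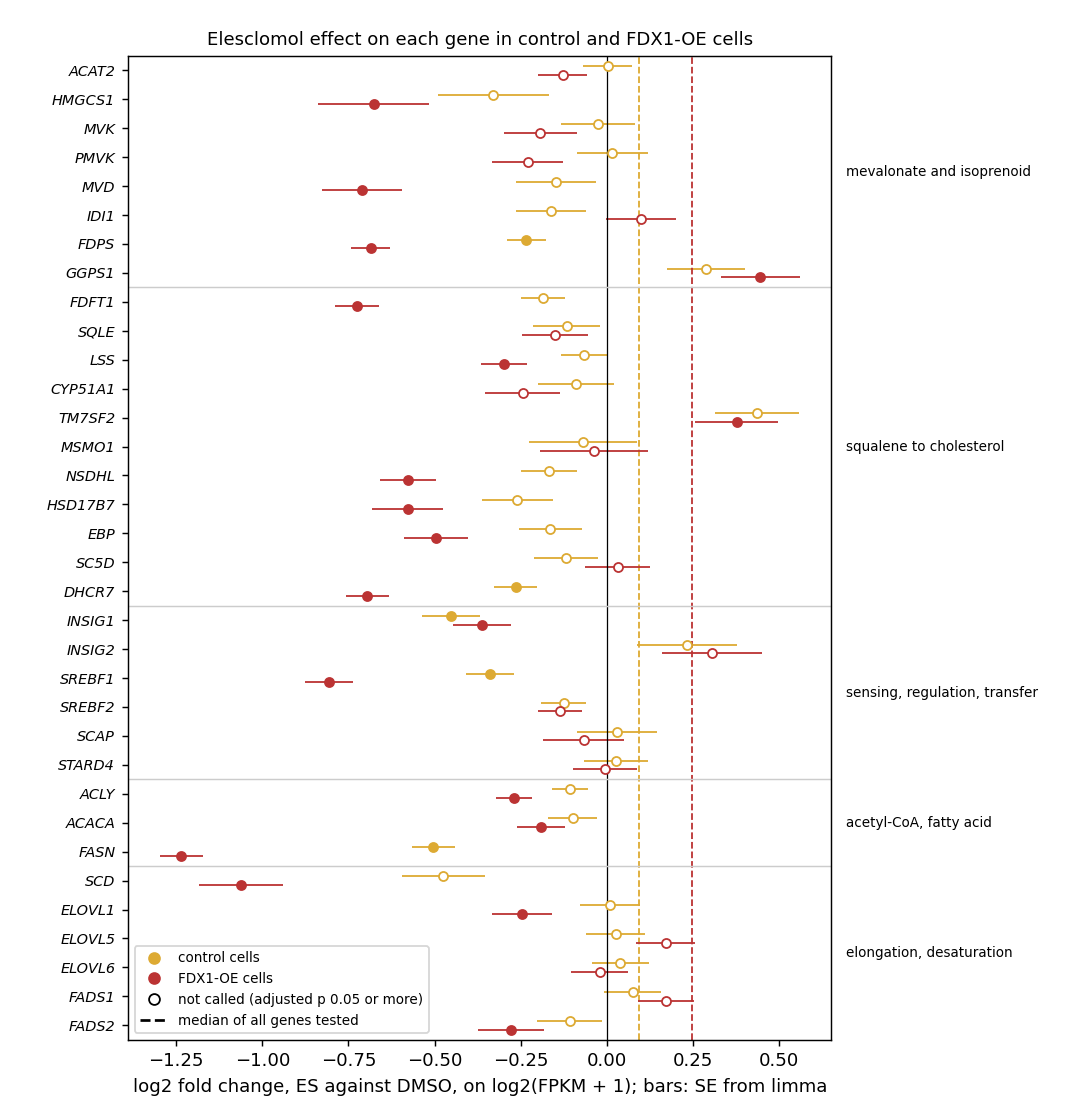
Log2 fold change of ES against DMSO for each of the 34 genes in control cells and in FDX1-OE cells, with bars of 1 SE from limma, filled where called. Dashed lines mark the medians over all genes tested, 0.09 in control and 0.25 in FDX1-OE cells; FASN and SCD lie farthest to the left in both, and INSIG1 is the gene called in both whose 2 points lie close together.

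Each elesclomol comparison shares a group of libraries with each comparison of FDX1-OE with control, so likeness between comparisons is not used. The elesclomol comparisons of the 2 cell types share no library, and their values are given side by side. The calls of each role group are read beside those of all genes tested. Of all genes, 13.7% were called lower and 47.1% higher with ES in FDX1-OE cells, and 1% and 6.74% in control cells. Among the 8 mevalonate and isoprenoid genes, 3 fell (37.5%) and 1 rose (12.5%) in FDX1-OE cells with ES, with a median change of -0.21. In control cells 1 fell (12.5%). HMGCS1, the synthase that forms HMG-CoA, had 30.7 and 32.6 FPKM in control DMSO, 34.7 and 32.8 in FDX1-OE DMSO, 25.9 and 24.1 in control ES, and 25.7 and 16.7 in FDX1-OE ES. Its fall passed the test in FDX1-OE cells (log2 fold change -0.68, SE 0.16, adjusted p = 0.007) and not in control cells (log2 fold change -0.33, SE 0.16, adjusted p = 0.226). In control cells HMGCS1 was called lower under 5 of the 18 alternatives. The FDX1-OE ES libraries were far apart for this gene, 0.59 log2 units, the largest difference between replicates among the members, and the higher one overlapped with control ES.

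MVD, mevalonate diphosphate decarboxylase, had 50.4 and 47.8 FPKM in control DMSO, 55.9 and 51.4 in FDX1-OE DMSO, 44.6 and 43.8 in control ES, and 28.1 and 37.2 in FDX1-OE ES. Both FDX1-OE ES libraries lay below every other library (log2 fold change -0.71, SE 0.12, adjusted p = 0.0011), and the change in control cells was -0.15 ± 0.12. FDPS, which makes farnesyl diphosphate, had 122 and 123 FPKM in control DMSO, 137 and 130.4 in FDX1-OE DMSO, 101 and 107 in control ES, and 83.1 and 82.3 in FDX1-OE ES. Its groups were ordered without overlap, FDX1-OE ES lowest and control ES next, with a fall of 38.1% in FDX1-OE cells (log2 fold change -0.69, SE 0.06, adjusted p = 5.43e-05) and of 15.1% in control cells (log2 fold change -0.23, SE 0.06, adjusted p = 0.045). ACAT2 (acetoacetyl-CoA thiolase), MVK and PMVK (the mevalonate and phosphomevalonate kinases) were not called in any comparison, and lay at 41.1 to 47.7, 10.0 to 14.0 and 26.2 to 35.8 FPKM. ACAT2 shares exon bases on the opposite strand with TCP1 and SOD2, and MVK with MMAB; the counting of strands is not given in the sources used here, so these members' levels are uncertain. IDI1, the isopentenyl diphosphate isomerase, was at 33.3 and 33.2 FPKM in FDX1-OE DMSO and 39.9 and 31.9 FPKM in FDX1-OE ES (log2 fold change 0.10, SE 0.10, adjusted p = 0.419), and the libraries overlapped.

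GGPS1, which makes geranylgeranyl diphosphate for protein prenylation, was the one gene of this group called higher. It had 4.87 and 5.47 FPKM in control DMSO, 5.68 and 5.18 in FDX1-OE DMSO, 6.88 and 6.18 in control ES, and 8.56 and 7.002 in FDX1-OE ES. ES libraries lay above DMSO libraries in both cell types, called in FDX1-OE cells (log2 fold change 0.45, SE 0.11, adjusted p = 0.00963) and not in control cells (0.29 ± 0.11). Its level is uncertain, since GENCODE 29 places 1422 shared exon bases with TBCE on the same strand, and the call was lost under 3 of the 17 alternatives, median-ratio scaling and quantile normalisation among them.

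Of the 11 genes from squalene to cholesterol, 6 fell (54.5%, beside 13.7% of all genes) in FDX1-OE cells with ES. There 1 rose (9.09%, beside 47.1%), and the median was -0.30. In control cells 1 fell (9.09%, beside 1%). FDFT1 had 180.1 and 176 FPKM in control DMSO, 188 and 191 in FDX1-OE DMSO, 156 and 157 in control ES, and 121 and 108 in FDX1-OE ES. The fall was 39.6% in FDX1-OE cells (log2 fold change -0.72, SE 0.06, adjusted p = 6.74e-05), larger than the spread between replicates. In control cells FDFT1 was 12.2% lower in ES without passing the test (log2 fold change -0.19, SE 0.06, adjusted p = 0.108). It was called lower there under 6 of the 18 alternatives. SQLE, squalene epoxidase, directly follows FDFT1 in the pathway and was not called: it was at 56.7 and 55.6 FPKM in FDX1-OE DMSO and 56.2 and 45.3 FPKM in FDX1-OE ES (log2 fold change -0.15, SE 0.10, adjusted p = 0.204). As deposited, FDFT1 was lower in both ES libraries, while the SQLE libraries overlapped. SQLE was called lower under 2 of the 17 alternatives, with values from -0.48 to 0.0017. A difference between these adjacent enzymes was not tested.

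LSS, the cyclase that closes squalene epoxide into lanosterol, went from 34.8 and 35.5 FPKM to 27.1 and 29.7 FPKM in FDX1-OE cells (log2 fold change -0.30, SE 0.07, adjusted p = 0.00547), and -0.07 ± 0.07 was its change in control cells. CYP51A1, the lanosterol demethylase, was at 24.1 and 24.3 FPKM in FDX1-OE DMSO and at 23.1 and 17.8 FPKM in FDX1-OE ES (log2 fold change -0.24, SE 0.11, adjusted p = 0.0836). It was called lower under 3 of the 17 alternatives, with values from -0.57 to -0.06. MSMO1, the methylsterol monooxygenase, was not called, with FDX1-OE ES libraries at 19.7 and 13.1 FPKM on either side of all 6 other libraries. The replicates disagree for both genes more than in any other group.

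NSDHL, the sterol dehydrogenase of the demethylation steps, had 16.98 and 16.96 FPKM in control DMSO, 18.2 and 17.05 in FDX1-OE DMSO, 15.9 and 14.1 in control ES, and 11.9 and 11.1 in FDX1-OE ES. It fell in FDX1-OE cells (log2 fold change -0.58, SE 0.08, adjusted p = 0.000548), where both ES libraries lay below every other library, and its change in control cells was -0.17 ± 0.08. HSD17B7, its partner ketoreductase, had 12.5 and 11.97 FPKM in control DMSO, 12.8 and 10.9 in FDX1-OE DMSO, 10.7 and 9.43 in control ES, and 8.01 and 7.16 in FDX1-OE ES. It too fell in FDX1-OE cells (log2 fold change -0.58, SE 0.10, adjusted p = 0.00167), with -0.26 ± 0.10 in control cells. A near copy, HSD17B7P2, was listed at 1.81 to 3.36 FPKM, so reads of these loci may be shared.

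EBP, the sterol isomerase, had 44.6 and 50.7 FPKM in control DMSO, 54.8 and 53.5 in FDX1-OE DMSO, 39.6 and 45.3 in control ES, and 36.3 and 40.1 in FDX1-OE ES. The fall in FDX1-OE cells passed the test (log2 fold change -0.50, SE 0.09, adjusted p = 0.00204), and in control cells, where the libraries overlapped, it was -0.16 ± 0.09. DHCR7, which makes cholesterol from its last precursor in one branch of the pathway, had 47.3 and 47.6 FPKM in control DMSO, 49.98 and 46.2 in FDX1-OE DMSO, 39.6 and 39.01 in control ES, and 29.6 and 28.96 in FDX1-OE ES. Its groups did not overlap between ES and DMSO, with a fall of 39.1% in FDX1-OE cells (log2 fold change -0.70, SE 0.06, adjusted p = 7.28e-05) and of 17.1% in control cells (log2 fold change -0.26, SE 0.06, adjusted p = 0.0422).

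TM7SF2, a sterol reductase that acts beside the demethylation steps, was the exception in this group. It had 23.8 and 24.1 FPKM in control DMSO, 25.5 and 25.98 in FDX1-OE DMSO, 33.2 and 32.3 in control ES, and 28.9 and 39.3 in FDX1-OE ES. ES libraries lay above DMSO libraries in both cell types; the rise was called in FDX1-OE cells (log2 fold change 0.38, SE 0.12, adjusted p = 0.0258) and not in control cells (log2 fold change 0.44, SE 0.12, adjusted p = 0.065), and with median-ratio scaling its FDX1-OE value was 0.05 with adjusted p = 0.758. In control cells the rise was called under 5 of the 18 alternatives. The gene shares 16 exon bases on the same strand with VPS51, and its FDX1-OE ES replicates differed widely. SC5D, the sterol desaturase, had 7.93 and 7.89 FPKM in control DMSO, 9.02 and 8.37 in FDX1-OE DMSO, 6.70 and 7.75 in control ES, and 9.35 and 8.47 in FDX1-OE ES. Elesclomol left it without a call in either cell type, at 0.03 ± 0.09 in FDX1-OE cells (-0.27, and called lower, with median-ratio scaling).

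Among the 6 genes of sterol sensing, SREBP regulation and sterol transfer, 2 fell in FDX1-OE cells and the same 2 in control cells: SREBF1 and INSIG1. That is 33.3% in each cell type, beside 13.7% of all genes in FDX1-OE cells and 1% in control cells. The group's median in FDX1-OE cells was -0.10, and 0.04 after rescaling to equal totals. SREBF1, which encodes the SREBP that mainly drives fatty acid enzymes, had 28.1 and 27.5 FPKM in control DMSO, 28.97 and 31.6 in FDX1-OE DMSO, 21.1 and 22.4 in control ES, and 16.99 and 16.8 in FDX1-OE ES. Its FDX1-OE ES libraries were 44.3% below FDX1-OE DMSO (log2 fold change -0.81, SE 0.07, adjusted p = 6.34e-05) and control ES was 21.6% below control DMSO (log2 fold change -0.34, SE 0.07, adjusted p = 0.0304). SREBF1 shares 556 exon bases with RAI1 on the opposite strand, so its reads may include some of RAI1. SREBF2, which encodes the SREBP that mainly drives cholesterol enzymes, had 69.9 and 67.6 FPKM in control DMSO, 68.1 and 69.1 in FDX1-OE DMSO, 61.95 and 63.9 in control ES, and 59.4 and 65.4 in FDX1-OE ES. It was lower in ES by 9.06% in FDX1-OE and 8.48% in control cells without passing the test (log2 fold change -0.14, SE 0.06, adjusted p = 0.098, and log2 fold change -0.13, SE 0.06, adjusted p = 0.245). At equal totals the FDX1-OE value was 0.01, and among the other alternatives it reached -0.47. SREBF2 was called lower under 2 of the 17 alternatives in FDX1-OE cells and under 1 of the 18 in control cells. The SREBF2 promoter is the one above with the stricter sterol element.

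INSIG1, itself a classical SREBP target, had 37.4 and 33.8 FPKM in control DMSO, 38.5 and 38.1 in FDX1-OE DMSO, 25.5 and 25.9 in control ES, and 31.9 and 27.5 in FDX1-OE ES. It was 27.8% lower with ES in control cells (log2 fold change -0.45, SE 0.08, adjusted p = 0.022) and 22.6% lower in FDX1-OE cells (log2 fold change -0.36, SE 0.08, adjusted p = 0.00624). Here the control ES libraries were the lowest, below both FDX1-OE ES libraries. INSIG2, whose product binds SCAP as well, had 1.31 and 1.86 FPKM in control DMSO, 1.82 and 1.92 in FDX1-OE DMSO, 1.88 and 2.17 in control ES, and 2.93 and 2.20 in FDX1-OE ES. It was the member with the lowest tested level, higher in ES libraries of both cell types without a call (log2 fold change 0.31, SE 0.15, adjusted p = 0.0997, and log2 fold change 0.23, SE 0.15, adjusted p = 0.329), and at -0.13 in FDX1-OE cells with quantile normalisation. SCAP (17.03 to 22.4 FPKM) and STARD4, a cholesterol carrier between membranes (5.83 to 6.86 FPKM), were not called in any comparison.

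All 3 tested genes of acetyl-CoA supply and fatty acid synthesis fell in FDX1-OE cells, beside 13.7% of all genes. FASN alone fell in control cells (33.3%, beside 1% of all genes). FASN, at chromosome 17, 82078333 to 82098332 (GRCh38, GENCODE 29, minus strand), had 101 and 98.5 FPKM in control DMSO, 101 and 96.5 in FDX1-OE DMSO, 72.9 and 67.1 in control ES, and 40.9 and 41.8 in FDX1-OE ES. It showed the largest fall of all members in both cell types, 58.1% in FDX1-OE cells (log2 fold change -1.23, SE 0.06, adjusted p = 6.92e-06) and 29.7% in control cells (log2 fold change -0.50, SE 0.06, adjusted p = 0.00694). The 3 levels, DMSO, control ES and FDX1-OE ES, did not overlap. ACLY had 137 and 133 FPKM in control DMSO, 137 and 134 in FDX1-OE DMSO, 126 and 125 in control ES, and 114 and 110.4 in FDX1-OE ES. Its fall in FDX1-OE cells was 17.2% (log2 fold change -0.27, SE 0.05, adjusted p = 0.00259), and the change in control cells was -0.11 ± 0.05. ACACA, acetyl-CoA carboxylase 1, went from 17.2 and 16.2 FPKM to 14.8 and 14.3 FPKM in FDX1-OE cells (log2 fold change -0.19, SE 0.07, adjusted p = 0.044), and this call was lost under 11 of the 17 alternatives.

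Of the 6 elongases and desaturases, 3 fell in FDX1-OE cells (50%, beside 13.7% of all genes) and none passed in control cells. The median in FDX1-OE cells was -0.13, and -0.00 after rescaling to equal totals. SCD, which puts the first double bond into stearate and palmitate, had 95.7 and 93.2 FPKM in control DMSO, 101 and 103 in FDX1-OE DMSO, 70.1 and 65.4 in control ES, and 56.3 and 41.5 in FDX1-OE ES. In FDX1-OE cells it fell by 52.1% (log2 fold change -1.06, SE 0.12, adjusted p = 0.000196). In control cells it was 28.3% lower (log2 fold change -0.47, SE 0.12, adjusted p = 0.0524), just outside the threshold, and it was called there under 8 alternatives. ELOVL1, an elongase of very long chains, had 49.2 and 48.7 FPKM in control DMSO, 47.5 and 49.1 in FDX1-OE DMSO, 52.9 and 45.9 in control ES, and 37.95 and 43.4 in FDX1-OE ES. The FDX1-OE ES libraries were lowest (log2 fold change -0.25, SE 0.09, adjusted p = 0.0376), and the call was lost under 11 of 17 alternatives.

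FADS2, the delta-6 desaturase, went from 42.6 and 44.7 FPKM to 33.3 and 38.5 FPKM in FDX1-OE cells (log2 fold change -0.28, SE 0.09, adjusted p = 0.0324), a call lost under 10 alternatives. FADS1, the delta-5 desaturase encoded beside it, had 5.25 and 5.05 FPKM in control DMSO, 6.26 and 6.02 in FDX1-OE DMSO, 5.61 and 5.34 in control ES, and 6.85 and 7.23 in FDX1-OE ES. It was not called for elesclomol in either cell type. The genes overlap by 490 exon bases on opposite strands, so each one's reads may include some of the other. ELOVL5 (56.3 to 70.3 FPKM) and ELOVL6 (4.82 to 5.51 FPKM), elongases of polyunsaturated and of saturated chains, had no call in any comparison.

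With elesclomol in both, FDX1-OE cells had lower levels than control cells for 11 members and higher levels for 2. Among all genes 10.4% were called lower and 31.1% higher (41.5% in either direction, and 51.3% at an unadjusted p below 0.05), and the medians were -0.14 for members and 0.16 for all genes. Both FDX1-OE libraries lay below both control libraries for 16 members, against 18.5% of all genes, and above them for 7, against 50.6%. The lower members were FASN (log2 fold change -0.74, SE 0.06, adjusted p = 0.000223), SCD (-0.48 ± 0.12), FDFT1 (-0.45 ± 0.06), MVD (-0.44 ± 0.12), DHCR7 (-0.41 ± 0.06), HSD17B7 (-0.37 ± 0.10), NSDHL (-0.36 ± 0.08), SREBF1 (-0.35 ± 0.07), FDPS (-0.33 ± 0.06), ELOVL1 (-0.28 ± 0.09) and ACLY (-0.16 ± 0.05), with adjusted p up to 0.0392. Those called under each of the 17 alternatives were FASN, FDFT1, DHCR7, FDPS and SREBF1. HMGCS1 was not called (log2 fold change -0.26, SE 0.16, adjusted p = 0.227), and without FDX1-OE ES replicate 2 its difference was 0.04.

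The 2 members higher in FDX1-OE ES than in control ES were FADS1 (log2 fold change 0.31, SE 0.08, adjusted p = 0.0179) and SC5D (log2 fold change 0.27, SE 0.09, adjusted p = 0.049). Both also stood higher in FDX1-OE than in control libraries in DMSO, without a call, as their library values above show. The call of SC5D was lost under 13 of the 17 alternatives and that of FADS1 under 6, median-ratio scaling and quantile normalisation among them for both. INSIG1 was at 31.9 and 27.5 FPKM against 25.5 and 25.9 FPKM, a difference that missed the threshold (log2 fold change 0.20, SE 0.08, adjusted p = 0.091).

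The elesclomol effect itself differed between the cell types for 8 members, all with a larger fall in FDX1-OE cells. This interaction was called lower for 8 of 34 members, where 5.06% of all genes were called lower and 13.9% higher (19% in either direction). No member had a called interaction above 0, nor an unadjusted p below 0.05 in that direction, and 10 members were below 0 at that unadjusted level, which 36.2% of all genes reached. The median interaction was -0.16 for members and 0.15 for all genes. FASN had the largest (-0.73 on the log2 scale, SE 0.09, adjusted p = 0.00311): its ES effect was -1.23 in FDX1-OE and -0.50 in control cells. For FDFT1 (-0.54 on the log2 scale, SE 0.09, adjusted p = 0.00894) the effects were -0.72 and -0.19, and these 2 genes alone kept the call under all 16 alternatives. SCD (-0.59 on the log2 scale, SE 0.17, adjusted p = 0.047) and MVD (-0.56 on the log2 scale, SE 0.16, adjusted p = 0.0475) lost the call under 11 and 12 alternatives, and NSDHL (-0.41 on the log2 scale, SE 0.12, adjusted p = 0.0431) under 11. The others were SREBF1 (-0.47 ± 0.10) and DHCR7 (-0.43 ± 0.09), each lost under 5, and FDPS (-0.45 ± 0.08), lost under 2.

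INSIG1 fell in both cell types, and the difference between its falls was 0.09 on the log2 scale, SE 0.12, adjusted p = 0.608. The sign of that difference turned with median-ratio scaling (-0.11) and without FDX1-OE ES replicate 1 (-0.012). HMGCS1, whose FDX1-OE ES replicates were the widest apart, had an interaction of -0.35 on the log2 scale, SE 0.23, adjusted p = 0.303. A p above the threshold does not show that either gene responded alike in the 2 cell types.

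**Figure D3:**
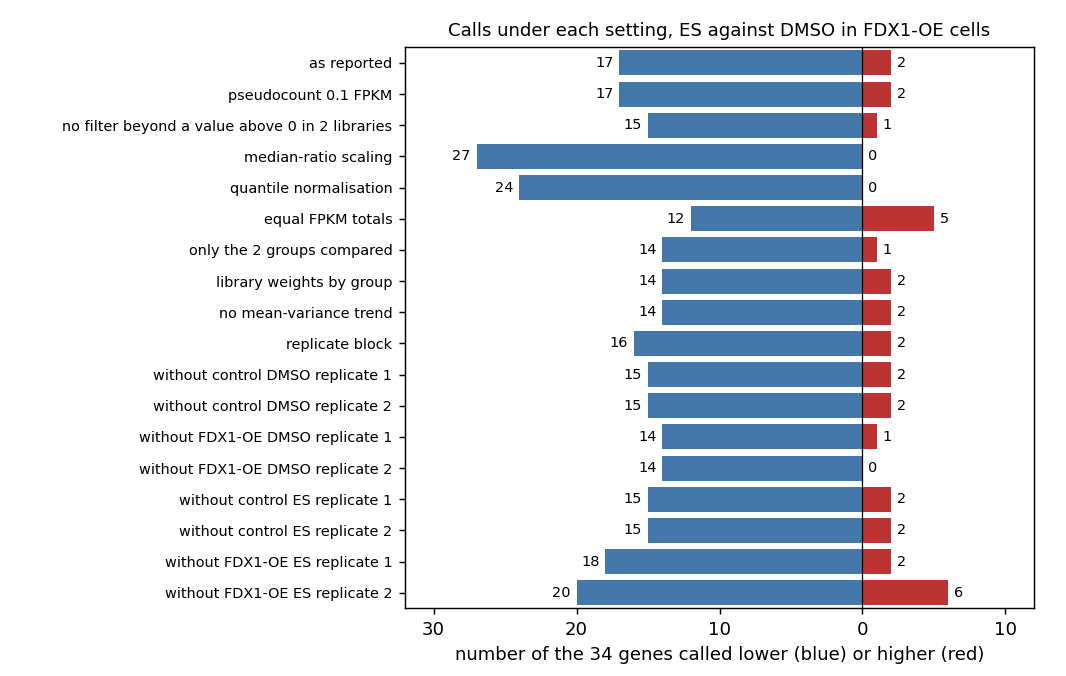
Number of the 34 genes called lower (blue, to the left) or higher (red, to the right) in ES against DMSO in FDX1-OE cells under the reported setting and 17 alternatives. Lower members outnumber higher ones in each row, between 12 with equal FPKM totals and 27 with median-ratio scaling. Of all 12063 genes, 1093 and 3645 were called lower under those settings.

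Other lipid genes were counted in 7 lists that share no gene with the 35. Their counts for FDX1-OE cells with ES are read against all genes tested, of which 47.1% were called higher and 13.7% lower, with a median of 0.25. Among 15 tested genes of glycerolipid synthesis and lipid droplets 11 rose (73.3%) and 2 fell (13.3%), with a median of 0.43 (0.10 with median-ratio scaling). LPIN1 and LPIN2, phosphatidate phosphatases, changed by 0.76 ± 0.06 and 1.23 ± 0.13, and PCYT1A, which forms CDP-choline for phosphatidylcholine, by 0.78 ± 0.07. LPIN1 went from 35.4 and 33.2 FPKM to 56.7 and 60.5 FPKM, with an adjusted p of 6.01e-05. Of 15 genes of mitochondrial fatty acid oxidation 10 rose (66.7%, beside 47.1% of all genes) and 1 fell (6.67%), with a median of 0.21, below that of all genes, and -0.10 with median-ratio scaling. ACADVL, the very long-chain acyl-CoA dehydrogenase, changed by 0.92 ± 0.13 and the trifunctional protein subunits HADHA and HADHB by 0.52 ± 0.06 and 0.68 ± 0.07.

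Of 12 tested genes of fatty acid activation and supply 6 rose (50%, beside 47.1% of all genes) and 1 fell (8.33%, beside 13.7%), with a median of 0.27, and -0.06 with median-ratio scaling. ACACB, the mitochondrial acetyl-CoA carboxylase 2, rose (log2 fold change 1.07, SE 0.10, adjusted p = 8.21e-05) while its cytosolic relative ACACA fell. SCD5, the other human stearoyl-CoA desaturase, rose from 1.01 and 0.952 FPKM to 2.92 and 3.15 FPKM (log2 fold change 1.03, SE 0.13, adjusted p = 0.000326) while SCD fell from a level far above it. ACSL5, an acyl-CoA synthetase, rose by 0.84 ± 0.06. In both pairs, 1 enzyme of a reaction was called higher and the other lower. The ACACA call was lost under 11 of the 17 alternatives (-0.06 at equal FPKM totals), while those of ACACB, SCD5 and SCD held under all 17.

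Of 12 tested genes of sterol efflux, esterification and lysosomal export 7 rose (58.3%, beside 47.1% of all genes) and 2 fell (16.7%, beside 13.7%), with a median of 0.31, and -0.01 with median-ratio scaling. MYLIP, a ubiquitin ligase induced by the sterol-sensing LXR receptors, fell (log2 fold change -0.97, SE 0.12, adjusted p = 0.000323). Of the genes listed with it for LXR, ABCA1 was at 2.31 and 2.37 FPKM in FDX1-OE DMSO and 2.33 and 2.17 in FDX1-OE ES. NR1H3 was at 2.50 and 2.25 FPKM, then 4.09 and 4.72. ABCG1, which did not pass the filter, was at 0.167 and 0.177 FPKM, then 0.990 and 1.36. The activity of the LXR receptors was not tested. LIPA, the lysosomal acid lipase, and STARD3, a late endosomal cholesterol transporter, rose by 0.85 ± 0.13 and 0.80 ± 0.12. Among 12 genes of SREBP processing and degradation 4 rose and 1 fell, 33.3% and 8.33% beside 47.1% and 13.7% of all genes (median 0.14, and -0.18 with median-ratio scaling). ERLIN1 and ERLIN2, membrane proteins of the endoplasmic reticulum, rose by 0.56 ± 0.10 and 0.38 ± 0.08.

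Of 14 genes of prenylation and the dolichol and coenzyme Q branches 5 rose (35.7%, beside 47.1% of all genes) and 1 fell (7.14%, beside 13.7%), with a median of 0.20, and -0.12 with median-ratio scaling. ICMT, which methylates prenylated proteins, rose by 0.59 ± 0.07, CHM, a Rab escort protein, by 0.61 ± 0.09, and RABGGTB, a subunit of the Rab prenyltransferase, changed by -0.67 ± 0.14. Among 9 genes of mitochondrial fatty acid synthesis and lipoate attachment 1 rose and 2 fell, 11.1% and 22.2% beside 47.1% and 13.7% of all genes (median 0.09, and -0.18 with median-ratio scaling). MCAT, the malonyl transferase of that pathway, changed by -0.55 ± 0.09 and NDUFAB1, its acyl carrier protein, by -0.23 ± 0.08. The call of NDUFAB1 was lost under 10 of the 17 alternatives. HTD2 rose by 0.37 ± 0.13, a call lost under 11 alternatives with its direction kept, but it overlaps another gene and turned to -0.06 with quantile normalisation. Glycerolipid synthesis was the one list of these 7 whose median stayed above 0 under all 3 rescalings. The lists for fatty acid activation and for sterol efflux had shares near those of all genes, and those for SREBP processing, prenylation and mitochondrial synthesis had smaller shares called higher.

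**Figure D4:**
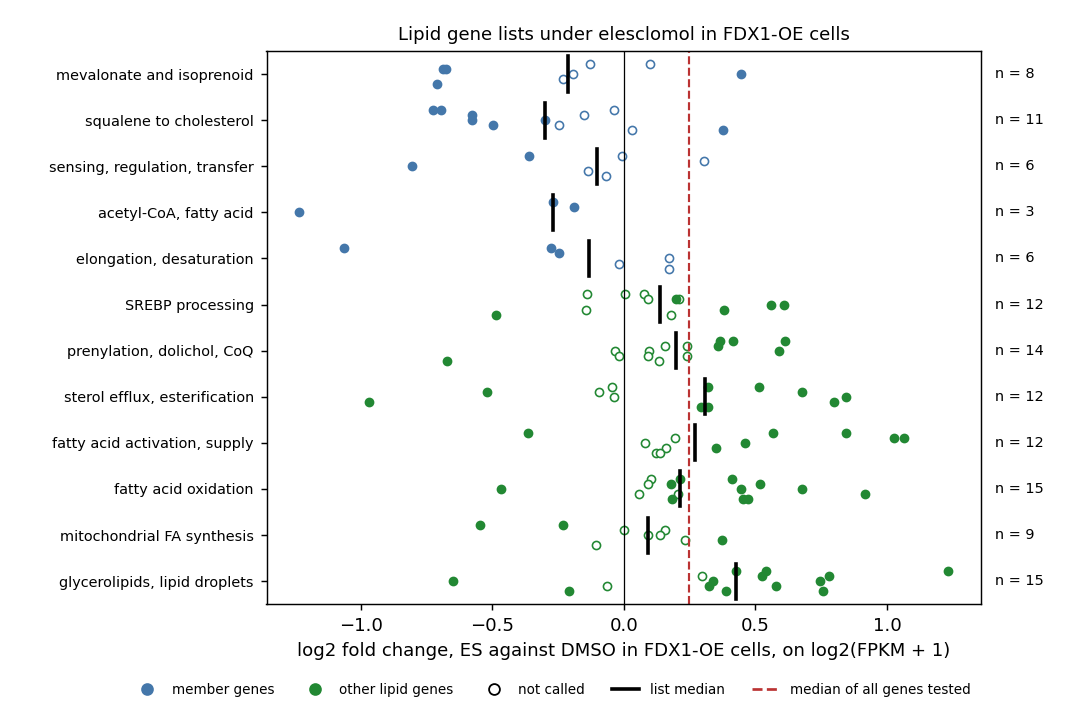
Log2 fold change of ES against DMSO in FDX1-OE cells for each tested gene of the 5 member groups (blue) and of 7 other lipid lists (green), filled where called, with the list median as a black bar and the median of all genes, 0.25, as a dashed line. All 5 member groups have medians below 0, from -0.30 to -0.10, and all 7 other lists have medians above 0, from 0.09 to 0.43.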

How the data were processed

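RNA-seq libraries (bulk, total RNA, VAHTS Universal V6 kit per the labels' protocols) of WSU-DLCL2 cells were used in 4 groups of 2, 8 in all. The authors deposited 1 value per gene symbol row and library, taken here as FPKM. No header names the unit: the values are not whole and their sums differ between libraries. Their commonest low value was 0.138 to 0.164 FPKM. It depends on gene length as well as depth, so no relative depth is read from it. The hg19 build and the tools R 3.2.0, HTSeq and HISAT2 are named, without roles, in the submitters' processing notes. The gene models, strand setting and absolute depth are not given in the sources used here, so no counting intervals are given. No counts were used here, and no count test was run. Symbols shared by several rows (1059 rows, 38 among the genes tested) were kept apart, and no member has one.

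Values were used as log2(FPKM + 1), which understates changes of low genes, with no scaling beyond the deposited one. The filter asked for 1 FPKM or more in 2 or more libraries and left 12063 genes. A single model of 4 group means, with a trend of variance on mean level, was fitted to the 8 libraries in limma 3.58.1 (R 4.3.3; 4 residual and 4.25 prior degrees of freedom). Tests were two-sided, p-values were adjusted by Benjamini-Hochberg over the 12063 genes, and calls were made below 0.05. Comparisons, 5 in all, set FDX1-OE against control in each treatment and ES against DMSO in each cell type, and the interaction is the ES effect in FDX1-OE cells less that in control cells. An exact permutation test of 2 against 2 cannot go below p = 0.333 and was not used. The fit was tried on simulated data in which all groups shared the same spread per gene. It therefore could not test the wider spread between the FDX1-OE ES replicates.

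Library values are given for members called in control cells with ES, between FDX1-OE and control in ES or in the interaction, for the 15 largest changes in FDX1-OE cells with ES, and for SREBF2, added after its values were seen; other members are given by range or by the groups compared. Up to 3 genes of each other lipid list, those with the smallest p, are named. The members and lists were chosen with earlier results of these data known. Alternatives varied the pseudocount, filter, scaling, libraries fitted, weights, trend and replicate block, and left out each library in turn. Promoters are from RefSeq (GRCh38.p14) and gene overlaps from GENCODE 29; no coordinate of the deposited values was used. HMGCS1 and FASN were also compared with all tested genes by Pearson correlation over the 8 libraries, as a description.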

Additional observations from a re-analysis of the deposited data

Results flagged for a closer look

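The elesclomol effect differed between FDX1-OE and control cells, by the interaction test of limma adjusted over all genes, for 17 of the genes named in the text, with adjusted p from 0.00311 to 0.0475. For 8 members the difference was below 0, meaning a larger fall with ES in FDX1-OE cells: FASN (-0.73 on the log2 scale), SCD (-0.59), MVD (-0.56), FDFT1 (-0.54), SREBF1 (-0.47), FDPS (-0.45), DHCR7 (-0.43) and NSDHL (-0.41). For 9 other lipid genes it was above 0: LPIN2 (0.82), LIPA (0.79), ACACB (0.71), SCD5 (0.68), STARD3 (0.61), LPIN1 (0.57), PCYT1A (0.57), ACSL5 (0.51) and ICMT (0.41). These 9 were named for a small p in ES against DMSO in FDX1-OE cells, which shares libraries with the interaction. Over all 89 tested genes of the 7 lists, 13 were called higher (14.6%) and 3 lower (3.37%), near the 13.9% and 5.06% of all genes. All members of both sets lay on the same side of 0 under each of the 16 alternatives. The call held under each alternative for FASN, FDFT1, LPIN1 and PCYT1A.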

How the results depend on the processing

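Counts of members called are given as reported and then under the alternatives, of which scaling and the leaving out of single libraries both moved them by over 1.5 times. In ES against DMSO in FDX1-OE cells the 17 lower members became 27 with median-ratio scaling, 24 with quantile normalisation, 12 at equal FPKM totals and 14 to 17 otherwise, and the 2 higher ones became 5 at equal FPKM totals, 0 with median-ratio scaling or quantile normalisation, and 1 with no filter or with only the 2 groups compared. Leaving out single libraries gave 14 to 20 lower and 0 to 6 higher (6 without FDX1-OE ES replicate 2, 0 without FDX1-OE DMSO replicate 2). In control cells the 5 lower members became 8 in 3 groups, with library weights or in 2 groups, 9 with median-ratio scaling, 3 with quantile normalisation or no trend 1 with no filter and 4 to 6 otherwise, and 0 to 8 without single libraries; the 0 higher became 1 in 3 groups, with weights or in 2 groups, and 0 to 1 without single libraries. For FDX1-OE against control in ES the 11 lower members became 19 with median-ratio scaling, 7 at equal totals or with no filter, 5 in 2 groups, 8 to 13 otherwise, and 5 to 14 without single libraries (5 without control ES replicate 1); the 2 higher became 6 at equal totals, 1 with no filter, no trend or the replicate block, 0 with weights, median-ratio scaling, quantile normalisation or 2 groups, and 0 to 7 without single libraries (7 without FDX1-OE ES replicate 2). The 8 lower interactions became 5 at equal totals, with no filter or with no trend, 12 with median-ratio scaling, 6 or 7 otherwise, and 2 to 11 without single libraries (2 without control DMSO replicate 1, 3 or 4 without the other DMSO and control ES libraries); the 0 higher became 0 to 1. FDX1-OE against control in DMSO stayed at 0 in both directions under each alternative. Calls over all 12063 genes moved too. With ES in FDX1-OE cells the 1652 lower genes became 3645 with median-ratio scaling, 2937 with quantile normalisation and 1093 at equal totals. The 5682 higher ones became 2740, 2783 and 7063 in that order. In control cells the 121 lower genes became 498, 59 and 101. For FDX1-OE against control in ES 1251 became 2560, 1788 and 739, and for the interaction 610 became 1297, 714 and 402. The cause of these moves was not tested beyond each alternative's own construction.

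With the title's replicate number as a replicate block, 16, 4, 10 and 7 members were lower in ES in FDX1-OE cells, ES in control cells, FDX1-OE against control in ES and the interaction. Same-numbered libraries did not deviate together (correlations from -0.05 to 0.08), so the numbers are not taken as pairs.

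Signs turned, on the log2 scale and with no call in the reported setting unless said, for INSIG1 between FDX1-OE and control in ES (-0.0067, median-ratio), the INSIG1 interaction (-0.11, median-ratio; -0.012 to 0.20 without single libraries), HMGCS1 between FDX1-OE and control in ES (-0.56 to 0.038 without single libraries), and, for ES in FDX1-OE cells, IDI1 (-0.23, median-ratio; -0.058 to 0.26 without single libraries), SC5D (-0.27 with median-ratio and with quantile normalisation; -0.033 to 0.096 without single libraries), INSIG2 (-0.13, quantile), SREBF2 (0.0052, equal totals), SQLE (-0.30 to 0.0017 without single libraries) and HTD2, called as reported (-0.064, quantile). The low ends for IDI1, SC5D, SQLE and the interaction of INSIG1 came without FDX1-OE ES replicate 1, and the high ends for SQLE and HMGCS1 without replicate 2. Over all named values, 1352 settings kept direction and call, 259 lost the call, 40 gained it and 14 turned. Over every pair of member and comparison, 170 in all, the sign of an uncalled value turned in 22 at equal FPKM totals, 24 with median-ratio scaling, 23 with quantile normalisation and 5 to 13 without single libraries. Values not called as reported that turned and passed the threshold were SC5D with ES in FDX1-OE cells under median-ratio scaling and quantile normalisation, MSMO1 in FDX1-OE against control with ES without FDX1-OE ES replicate 1, and, without replicate 2, TM7SF2 in that comparison and MSMO1 with ES in FDX1-OE cells. Depth per library is not known, so it could not be used to bound low genes such as INSIG2 and ACSS2.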

Other observations

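Over the 8 libraries the genes whose log2 values ran most like those of FASN, members left out, were FABP5, a fatty acid-binding protein (Pearson r = 0.998), SCARB1, the HDL receptor (0.997), and PHB2, VARS1 and TMC8 (0.996 each). Those most like HMGCS1 were EIF2S1, a subunit of the translation initiation factor eIF2 (0.995), STK38L (0.991), FAM81A (0.985), and TMTC4 and SSB (0.984 each). The 8 points share the same 4 groups, so any gene that follows the groups scores high, and nothing about shared function or control is read from it.

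ACSS2 was listed at 0.527 FPKM in FDX1-OE ES replicate 1 and at 0.012 to 0.138 FPKM in the other 7 libraries, too low to test.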
